A study of Mus musculus with 4 samples.

Results

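The actin filaments and the spectrin membrane skeleton of the lens were examined through 10 genes, the tropomyosins Tpm1, Tpm2, Tpm3 and Tpm4, the spectrins Sptan1 and Sptbn1, the ankyrin Ank2, the adducins Add1 and Add3, and Ezr. Members were all probes whose gene symbol in the deposited normalized table was one of these names, with Spna2 read as Sptan1 and Spnb2 as Sptbn1. This gave 33 of 45263 probes, for 9 of the 10 genes. No probe carried the symbol Ezr, and ezrin was not analysed here. The probes were read in whole lenses of mice at postnatal day 6 by hybridisation to MouseWG-6 v2.0 BeadChips (Illumina), from 2 Celf1 cKO and 2 Control samples (replicates A and B of each). CELF1 is an RNA-binding protein that acts on splicing, stability and translation of its target mRNAs. The Celf1 cKO mice carried a conditional allele, from which Cre recombinase of the Pax6GFPCre line removes exon 5 in the lens, beside a Celf1 lacZ knock-in allele. Control mice were Celf1 lacZKI/+, so that both groups carried the lacZ knock-in allele, and the background was mixed (C57BL/6, FVB). The sex of the mice was not given, and each sample was a single lens. The methods of the study call the samples biological replicates, but do not say that the lenses came from different mice, so that p-values measure the spread between these samples.

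Lens fiber cells are long, tightly packed cells whose plasma membrane is lined by a network of spectrin and short actin filaments. In that network an alpha and a beta spectrin form long tetramers that cross-link actin filaments, ankyrins tie spectrin to membrane proteins, adducins bind the fast-growing filament end and help spectrin to attach there, and tropomyosins lie along the filament while tropomodulins cap its slow-growing end. Ezrin and its relatives moesin and radixin link actin to the membrane by another route.

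Celf1 itself was reduced in cKO lenses, with log2 signals of 7.51 and 7.01 against 8.78 and 8.62 in Control lenses (log2 fold change -1.44 ± 0.20, SE, limma adjusted p = 0.00969). The cKO arrays were the brighter ones, with 16261 and 16925 probes detected above background against 14542 and 14180 on the Control arrays, and brightness and genotype cannot be told apart. Xist, which is transcribed from the inactive X chromosome, was above background on both cKO arrays and on neither Control array (at least 6.33-fold higher, limma adjusted p = 7.77e-04), and the Y-linked gene Ddx3y had log2 signals of 6.86 and 4.83 in cKO against 9.06 and 8.88 in Control lenses (log2 fold change -3.12 ± 0.56, SE, limma adjusted p = 0.0192). Ddx3y was thus detected on both cKO arrays too, at unlike levels. The sex-linked genes differed between the groups, so that effects of genotype and of sex cannot be told apart in any comparison here. All 8 lens fiber markers were tested, and the crystallin genes Cryaa and Cryba1 had log2 signals of at least 14.4 on every array. Of the 8, 7 had a fitted value below 0, the median was -0.16, and 2 were called, both reduced (Birc7 at -1.44, limma adjusted p = 0.00495, and Bfsp2 at -0.74, adjusted p = 0.0256). The mean log2 signal of the fiber markers was 12.96 and 12.85 in cKO against 13.25 and 13.29 in Control lenses. Of 4 tested lens epithelium markers Foxe3 was reduced (-0.82, adjusted p = 0.0173), and Cdh1 (-0.54), Sulf1 (-0.55) and Npnt (0.0) were not called. Their mean was 5.79 and 5.63 against 6.10 and 6.27. The part of these markers in the values of the members was not tested. No marker of retina or of pigment cells passed the detection filter.

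Averaged over their probes, no member gene passed the test between genotypes. Of the 9 genes, 0 were called by limma, where 11.8% of all 12013 genes were called (6.14% elevated and 5.64% reduced). A call required a mean log2 signal over 4.6, a log2 fold change beyond 0.58 in either direction and an adjusted p under 0.05. At an unadjusted p under 0.05 there were 2 member genes, where the share over all genes was 31.8%. The median log2 fold change was -0.06 over the members and 0.01 over all genes. The fitted changes ran from -0.43 for Tpm2 to 0.11 for Add3. These counts followed the scaling of the arrays. With no normalization between arrays 5 member genes were called, all elevated, while the median of all genes was itself at 0.57, and with the same median over detected probes 2 were called, both reduced, at a median of -0.19 over all genes. In whole lenses, fewer cells of a type and less RNA per cell cannot be told apart.

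**Figure D1:**
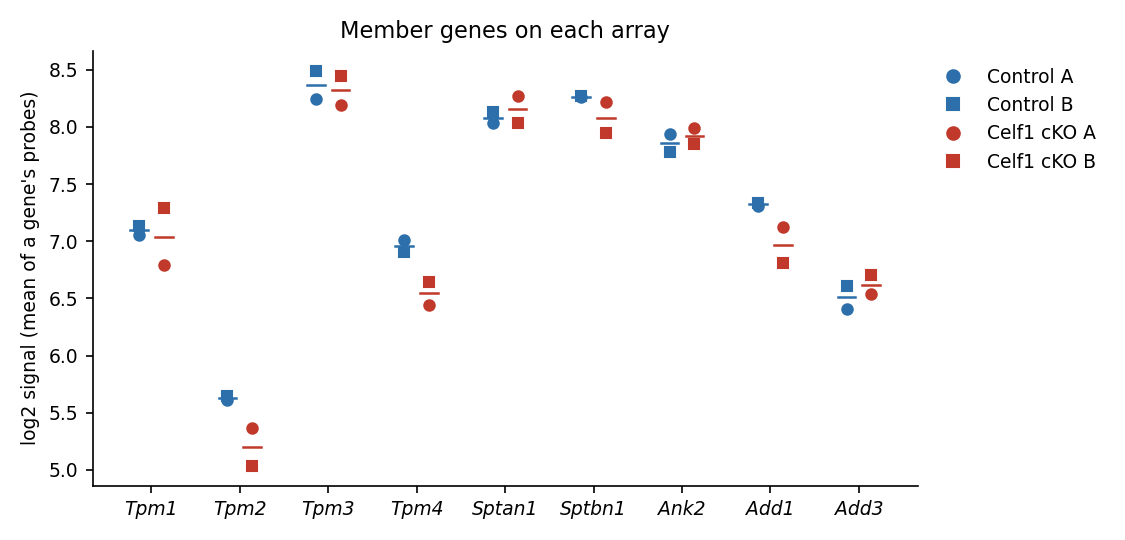
Log2 signal of the 9 member genes (vertical axis, mean over a gene's tested probes) on each of the 4 arrays; circles are replicate A, squares are replicate B and lines are group means (n = 2). The cKO values of Tpm2, Tpm4, Sptbn1 and Add1 lie below both Control values, and those of Tpm1, Tpm3, Sptan1, Ank2 and Add3 overlap with them. How many of all genes separate in this way was not counted, so that the separation is no sign of a change. Levels are not comparable between genes.

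Single probes gave another picture for 1 gene. Of the 33 member probes, 24 passed the detection filter (a detection p under 0.05 in at least 2 samples), 8 of the other 9 were detected on no array and the remaining one on 1 array. Of the 24 tested probes, 5 were called, 1 elevated and 4 reduced in cKO lenses, or 20.8%, where 11.3% of all 16262 probes were called (5.86% elevated and 5.4% reduced). At an unadjusted p under 0.05 there were 9, where the share over all probes was 30.6%. Of the 5 called probes, 3 belonged to Sptbn1, which has 3 tested probes. In the other 8 genes 2 of 21 tested probes were called, one of Add1 and one of Tpm2, and neither was detected on all 4 arrays. The tested probes include some that passed the filter through a single group, so that the share called is no sign of a change in the members. Restricted to probes detected on all 4 arrays, 19 of the members, 4 were called, the 3 of Sptbn1 and 1 of Sptan1. In that setting 1428 of all 9332 genes were called, and the share over all probes was not computed. The 19 probes that were not called had log2 fold changes from -0.61 to 0.92. With a sample left out 1 to 4 member probes were called, the fewest without Control B, and with no normalization between arrays 14 were called, all elevated.

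**Figure D2:**
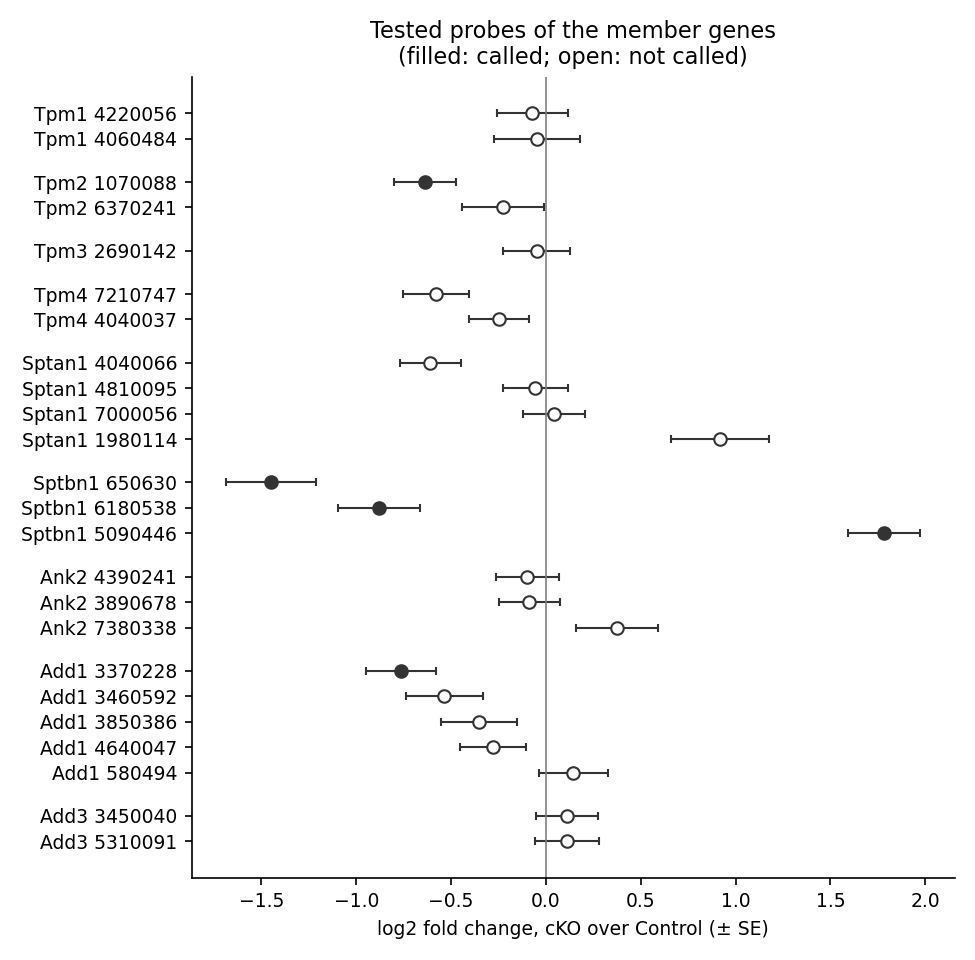
Log2 fold change of cKO over Control (horizontal axis, bars are ± 1 SE) for the 24 tested member probes, grouped by gene and labelled with the array's probe number; filled points were called and open points were not. Sptbn1 has a called probe at 1.78 and called probes at -0.88 and -1.45, and the probes of the other genes lie between -0.76 and 0.92.

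Sptbn1 encodes beta-II spectrin, the beta subunit that pairs with the Sptan1 product in most cells other than red blood cells. The array holds 7 probes for it on the minus strand of chromosome 11, designed on 2 transcript records with different ends. The record NM_175836.2 stands for the long protein, whose C-terminal end carries a pleckstrin homology domain that binds membrane phospholipids, and NM_009260.2 for a shorter protein without that domain. The 3 probes above background all lie towards the 3' ends of these records. They are shown because the direction of the change differed between the records, and the files name no genome build for the positions. Positions are those of the files. Of 948 pairs of probes that overlap by at least 8 bases by their positions in a record, 87.0% shared those letters to within 1 base of offset, 2.85% overlapped only as the reverse complement of each other, and 9.18% did not overlap by their letters. Probe 5090446 starts at base 7981 of NM_009260.2 (chr11:30007861-30007910, first 30 bases shown), probe 6180538 at base 6647 of NM_175836.2 (chr11:30004441-30004490) and probe 650630 at base 7009 of NM_175836.2 (chr11:30000575-30000624).
Sptbn1 5090446: ctcccttgctcatttgccatatttagatgt
Sptbn1 6180538: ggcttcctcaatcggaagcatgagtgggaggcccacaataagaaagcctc
Sptbn1 650630: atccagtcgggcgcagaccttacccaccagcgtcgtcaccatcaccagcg

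The probe of the short record was brighter in cKO lenses. Its unnormalized intensity was 2199.4 in cKO A and 2299.6 in cKO B, against 509.7 in Control A and 294.2 in Control B. The standard error over the beads of an array was 85.8 and 82.8 in the cKO samples and 20.4 and 24.7 in the Control samples, which is technical error within an array and holds no spread between lenses. After background correction and normalization the log2 signals were 10.78 and 10.76 in cKO against 9.22 and 8.77 in Control lenses. The groups did not overlap. The probe was elevated 3.44-fold (log2 fold change 1.78 ± 0.19, SE, limma adjusted p = 0.00419).

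Both probes of the long record went the other way. Probe 650630 had an unnormalized intensity of 673.6 and 456.7 in cKO lenses against 952 and 701.8 in Control lenses, on arrays that were dimmer in general. Its log2 signals were 9.02 and 8.32 in cKO against 10.17 and 10.07 in Control lenses, without overlap. It was reduced 2.73-fold (log2 fold change -1.45 ± 0.24, SE, limma adjusted p = 0.0143). Leaving out a Control sample ended this call, with an adjusted p of 0.055 without A and 0.0858 without B. Probe 6180538 was dim, with log2 signals of 4.85 and 4.75 in cKO against 5.39 and 5.97 in Control lenses, and was reduced (log2 fold change -0.88 ± 0.21, SE, limma adjusted p = 0.0419). That call was kept only in the fit without Control A among the 4 fits that left out a sample.

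The mean of the 3 probes, which is the gene value of Sptbn1, changed by -0.18 ± 0.16 on the log2 scale (SE, limma adjusted p = 0.462) because it adds changes of opposite sign. The response of the probes was therefore compared within the gene by diffSplice of limma. Sptbn1 probes differed from each other in their response to genotype (adjusted p = 0.00206), the third smallest p of 3125 genes with at least 2 tested probes. Of those genes 1.34% differed at an adjusted p under 0.05, and of the 8 member genes in the test Sptbn1 was the only one. The adjusted p was 0.0692 without Control B, while it was at most 0.0164 without any other sample. Against the other probes of the gene, the adjusted p was 0.00172 for probe 5090446, 0.0127 for probe 650630 and 0.14 for probe 6180538.

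Probes 5090446 and 650630 were also compared within each array. They were chosen as the called probe of smallest p in each direction. Unlike ratios between the genotypes follow from this choice and are no independent sign of a change. The unnormalized intensity of probe 5090446 divided by that of probe 650630 was 3.27 in cKO A and 5.04 in cKO B, against 0.535 in Control A and 0.419 in Control B. On the log2 scale after normalization the difference between these probes was 2.10 ± 0.48 (SD, n = 2) in cKO and -1.13 ± 0.25 (SD, n = 2) in Control lenses, which is a change of 3.23. Since the probes bind different sequences, these ratios show that the signals changed unequally and are not ratios of transcript amounts.

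The remaining 4 Sptbn1 probes gave no measure of the total. Probes near the 5' ends of the records (base 282 of NM_009260.2 and base 51 of NM_175836.2) were detected on 0 arrays and on 1 array. Probe 6580524, at base 6724 of NM_175836.2 between both long-record probes, was detected on no array. Probe 1010626 lies 1158 bases upstream of probe 5090446, both along NM_009260.2 and on the chromosome, by the positions of the files. It was detected on no array, with unnormalized intensities from 39.5 to 51.9, while probe 5090446 reached 2299.6. The files assign each probe to 1 record, and whether a probe also matches the other record was not checked.

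**Figure D3:**
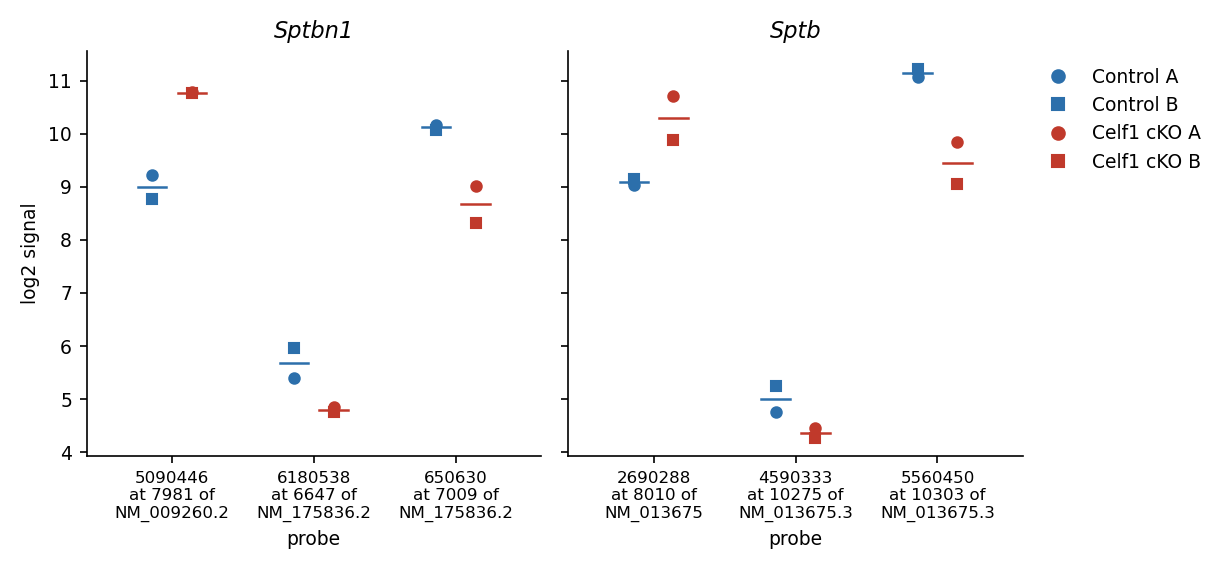
Log2 signal (vertical axis) of the tested probes of Sptbn1 and Sptb on each array; circles are replicate A, squares are replicate B, lines are group means (n = 2), and the labels give the probe number, its first base and its transcript record. In each gene 1 probe is higher in both cKO lenses than in both Control lenses and the other 2 are lower.

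Sptan1 encodes alpha-II spectrin, the partner of beta-II spectrin. Its gene value was not called (log2 fold change 0.07 ± 0.15, SE, limma adjusted p = 0.773). Its brightest probe, 7000056, gave log2 signals of 11.73 and 11.50 in cKO against 11.52 and 11.62 in Control lenses, which overlap. A probe in the middle of the gene stood apart. Probe 1980114 starts at base 1933 of NM_001076554.1 (chr2:29849373-29849422, plus strand) and is shown because it differed from the other Sptan1 probes in the test by probe.
Sptan1 1980114: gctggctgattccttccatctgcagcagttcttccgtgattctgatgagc

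This probe had log2 signals of 7.98 and 7.19 in cKO against 6.57 and 6.76 in Control lenses. The groups did not overlap. Its log2 fold change of 0.92 ± 0.26 was not called (SE, limma adjusted p = 0.0624) and depended on the cKO lenses. Leaving out cKO A gave 0.51 (adjusted p = 0.254), whereas leaving out cKO B gave 1.30, which was called (0.0219). It was also called in 5 of 11 alternative settings with all samples. Against the other probes of the gene its adjusted p was 0.0464, while the test over the whole gene did not pass (adjusted p = 0.0716). That test passed in 4 of 10 alternative settings with all samples (0.00358 to 0.0473) and in no fit that left out a sample. A dim Sptan1 probe, 4040066, was above background on neither cKO array and on both Control arrays (limma adjusted p = 0.0541), and was not called.

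The tropomyosin genes were not called in the reported fit. With the same median over detected probes Tpm2 (-0.72) and Tpm4 (-0.59) were called as reduced. With no normalization between arrays Tpm1 (0.72) and Tpm3 (0.80) were called as elevated. The fitted value of Tpm2 was -0.215 with normexp and -0.898 with the deposited table. Tpm1, which makes many isoforms and is abundant in muscle, had log2 signals of 6.79 and 7.29 in cKO against 7.06 and 7.14 in Control lenses (log2 fold change -0.06 ± 0.19, SE). Its probes gave near-equal changes, at -0.05 and -0.07. Tpm3 was read by 1 probe, with log2 signals of 8.19 and 8.45 in cKO against 8.24 and 8.49 in Control lenses, which overlap. The other 3 Tpm3 probes were detected on no array.

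Tpm2 and Tpm4 had the lowest unadjusted p-values among the member genes. Tpm2 had log2 signals of 5.37 and 5.04 in cKO against 5.62 and 5.65 in Control lenses (log2 fold change -0.43 ± 0.16, SE, limma adjusted p = 0.126). Tpm4 had 6.44 and 6.65 against 7.01 and 6.91 (log2 fold change -0.41 ± 0.15, SE, limma adjusted p = 0.115). In both genes the groups did not overlap, for which no share over all genes was taken. In both the dimmer probe had the lower fitted value. Tpm2 probe 1070088 was called, and was above background on neither cKO array and on both Control arrays (at least 1.45-fold lower, limma adjusted p = 0.0482). It passed the filter through the Control group alone, so that its call is no independent sign of a change. The call was kept only in the fit without Control A among those that left out a sample, and was lost with normexp (-0.29, adjusted p = 0.11), with the deposited table (0.0814), with no normalization (0.154), with cyclic loess (-0.58, under the threshold for the fold) and with no detection filter (0.098). The bound holds for this background correction only. The brighter Tpm2 probe, 6370241, changed by -0.22 ± 0.22 on the log2 scale (SE, adjusted p = 0.520). For Tpm4 the brighter probe, 4040037, had -0.25 ± 0.16 (SE, adjusted p = 0.329) and the dimmer one, 7210747, had -0.58 ± 0.17 (SE, adjusted p = 0.0723). The probes of neither gene differed from each other in the test within the gene (adjusted p = 0.582 for Tpm2 and 0.583 for Tpm4).

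Tropomyosins are also made in muscle, and of 6 smooth muscle markers 2 were tested, Acta2 and Des, with none called. Myh11, Tagln, Cnn1 and Actg2 did not pass the detection filter. The mean log2 signal of the tested markers was 6.04 and 6.76 in cKO against 6.47 and 6.67 in Control lenses. Acta2 had log2 signals of 7.41 and 8.94 in cKO against 8.17 and 8.13 in Control lenses. Of 6 skeletal muscle markers 2 were tested, with mean log2 signals of 4.80 to 4.81 in cKO and 4.54 to 4.74 in Control lenses, and none was called. Their part in the tropomyosin values was not tested.

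Ank2 encodes ankyrin-B, which anchors spectrin to membrane proteins of lens fibers. Its log2 signals were 7.99 and 7.85 in cKO against 7.93 and 7.78 in Control lenses, which overlap (log2 fold change 0.06 ± 0.15, SE, limma adjusted p = 0.804). Its probes 3890678 and 4390241 gave -0.09 and -0.10, and the dimmer probe 7380338 gave 0.37.

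Of the adducins, Add3 encodes gamma-adducin and Add1 encodes alpha-adducin. Add3 had log2 signals of 6.54 and 6.70 in cKO against 6.41 and 6.61 in Control lenses, and both of its tested probes gave a log2 fold change of 0.11. Add1 had 7.12 and 6.81 in cKO against 7.31 and 7.33 in Control lenses (log2 fold change -0.36 ± 0.16, SE, limma adjusted p = 0.180). Its 3 bright probes, near the 3' end of NM_001024458, ranged from -0.54 to -0.28 and none was called. The remaining Add1 probes are dim, and each reads almost the same bases as the other. They are shown because they measure how far dim signals repeat, and the capitals mark the 49 bases that they share.
Add1 3370228: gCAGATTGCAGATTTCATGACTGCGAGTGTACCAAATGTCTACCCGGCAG
Add1 580494: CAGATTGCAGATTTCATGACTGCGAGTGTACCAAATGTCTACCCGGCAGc

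Probe 3370228 had log2 signals of 4.73 and 4.52 in cKO against 5.20 and 5.57 in Control lenses and was called as reduced (log2 fold change -0.76 ± 0.19, SE, limma adjusted p = 0.0419). With a sample left out the call was kept only without Control A, and it was lost with normexp (0.08), with the deposited table (0.0943), with no normalization (0.13) and with no detection filter (0.14). Probe 580494, shifted by 1 base, had 4.98 and 4.9 against 4.99 and 4.6 (log2 fold change 0.14 ± 0.18, SE, adjusted p = 0.631). The difference between these near-identical probes, 0.91 on the log2 scale, is larger than the fitted change of either. In the test within the gene the Add1 probes did not differ from each other (limma diffSplice adjusted p = 0.411). The called probe of Tpm2 and probe 6180538 of Sptbn1 were also dim, and probes 5090446 and 650630 of Sptbn1 were brighter. Whether dim signal bears on these calls was not tested.

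The other genes of the membrane skeleton were read from 4 lists with 48 genes, of which 34 were tested. Of these 4 were called, 2 elevated and 2 reduced, and the median log2 fold change was -0.01. With 11.8% of all genes called, this share is near the background. At an unadjusted p under 0.05 there were 10, where the share over all genes was 31.8%. With no normalization between arrays 18 genes of the lists were called, where 6054 of all 12013 genes were. The calls also moved when a sample was left out.

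**Figure D4:**
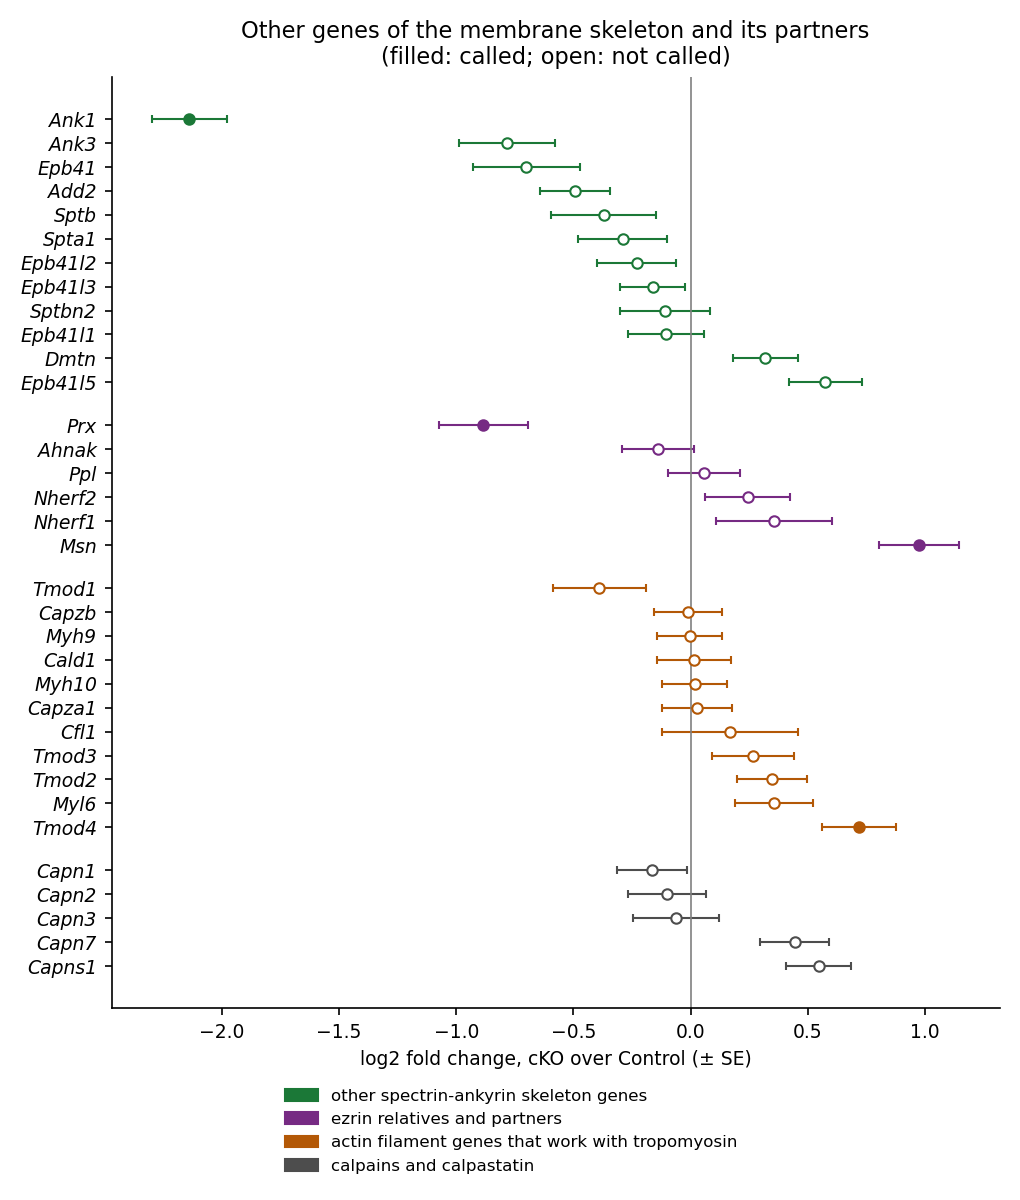
Log2 fold change of cKO over Control (horizontal axis, bars are ± 1 SE) for the 34 tested genes of the 4 lists, coloured by list; filled points were called and open points were not. Ank1 lies lowest at -2.14 and Msn highest at 0.97.

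Among 12 tested spectrin and ankyrin skeleton genes, 10 had a fitted value below 0, where the share over all genes was 48.7%, and the median was -0.26. Of the 12, 1 was called, where 11.8% of all genes were. Ank1, which encodes the erythroid type of ankyrin, was above background on both Control arrays, with log2 signals of 6.77 and 6.48, and on neither cKO array (at least 4.13-fold lower, limma adjusted p = 0.00192). Its probe passed the filter through the Control group alone, so that the call is no independent sign of a change. With a sample left out the log2 fold change was -2.42 to -2.02. The size followed the processing, with a fitted log2 fold change of -2.14 here, -1.23 with normexp and -3.35 with the deposited normalized table. The bound therefore holds for this background correction only. Ank1 was tested by 1 of its 2 probes, and the other, 3990600, was detected on no array. With no detection filter the gene mean takes in that probe, and the value was -1.10. Ank3, or ankyrin-G, changed by -0.78 ± 0.20 on the log2 scale (SE, limma adjusted p = 0.0505), and Epb41, which encodes protein 4.1, had -0.70 ± 0.23 (SE, adjusted p = 0.0866). Neither was called. In the other direction Epb41l5 had 0.57 ± 0.16 (SE, adjusted p = 0.0554) and Dmtn, which encodes dematin, 0.32 ± 0.14 (SE, adjusted p = 0.168), and neither was called. Because Ank1 is also a red blood cell gene, the erythroid markers stand beside it. Of these, 3 were tested. Slc4a1, the anion exchanger of red blood cells, was reduced (log2 fold change -1.05 ± 0.15, SE, limma adjusted p = 0.0112), while the globin genes Hba-a1 and Hbb-b1 had -0.08 and 0.05 and were not called. Alas2 did not pass the detection filter. The mean log2 signal of the 3 was 7.52 and 6.67 in cKO against 7.54 and 7.37 in Control lenses, and its part in the Ank1 value was not tested.

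The erythroid beta spectrin gene Sptb also had called probes in opposite directions, here with both on 1 record. It was singled out after its values were seen. Its gene value was not called (log2 fold change -0.37 ± 0.22, SE, limma adjusted p = 0.296), and its probes differed from each other in their response (adjusted p = 0.0138). The probes are designed on NM_013675, and the first 30 bases of the called ones are given to tell them apart. The files place probe 5560450 at base 10303 of version 3 of the record and probe 2690288 at base 8010 of a record without a version.
Sptb 2690288: tgcacctgagccacctccatctgacacttg
Sptb 5560450: ggctgggccttgtcctccacctgctcaaat

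Probe 2690288 was elevated, with log2 signals of 10.72 and 9.89 in cKO against 9.04 and 9.14 in Control lenses (log2 fold change 1.21 ± 0.27, SE, limma adjusted p = 0.0318). Probe 5560450 was reduced, with 9.85 and 9.05 against 11.06 and 11.22 (log2 fold change -1.69 ± 0.26, SE, limma adjusted p = 0.0119). The unnormalized intensity of the first divided by that of the second was 1.80 and 1.75 in cKO against 0.252 and 0.244 in Control lenses. These ratios agree closely within each genotype, although cKO A was brighter than cKO B with both probes. A further probe, 4590333, overlaps with probe 5560450 by 22 bases by its position in the files, but their letters do not overlap, so that at least 1 of these positions does not match its sequence. Probe 4590333 was near background, with unnormalized intensities from 44.4 to 55.6 against 736.6 to 1803.9 for probe 5560450, and was not called (log2 fold change -0.63, limma adjusted p = 0.0835). Probe 4290041 was detected on no array. Leaving out a sample ended the call of probe 2690288 in 3 of 4 fits, with 0.79 without cKO A (adjusted p = 0.0819), 1.16 without Control A (0.0927) and 1.25 without Control B (0.122), and that of probe 5560450 without Control B (0.0885). The test of the difference did not pass without Control A (adjusted p = 0.0534) or without Control B (0.197). Genes with called probes in opposite directions were few, 7 of 3125 or 0.224%, and Sptbn1 and Sptb were among them.

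**Figure D5:**
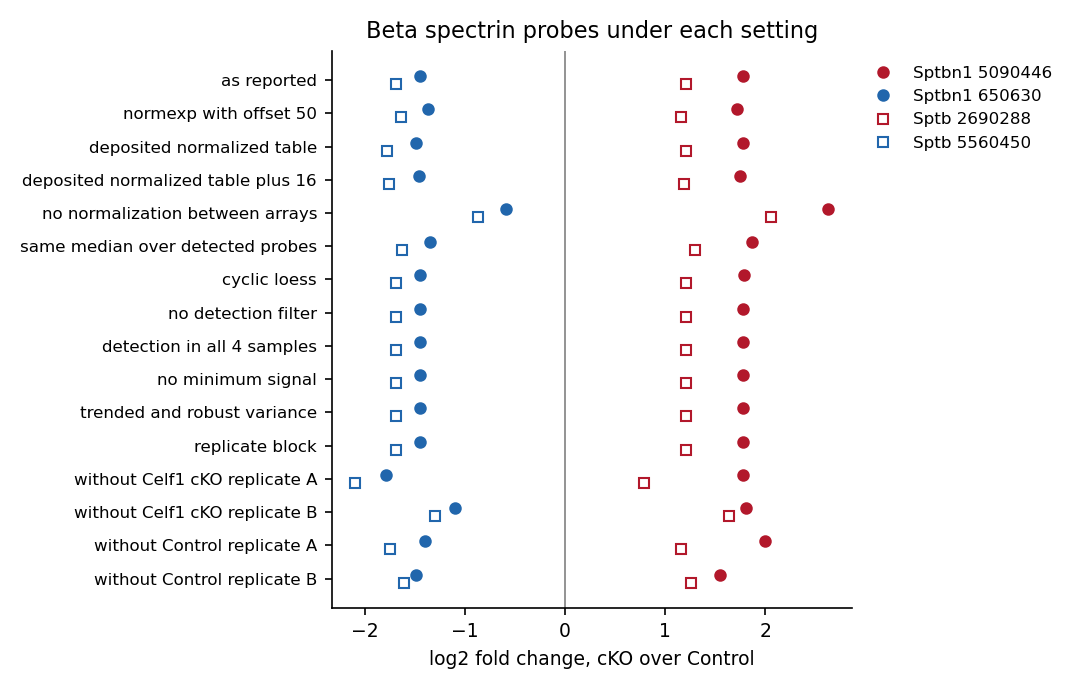
Log2 fold change (horizontal axis) of the called Sptbn1 probes of largest change in each direction (filled circles) and of the called Sptb probes (open squares) under each processing setting and with each sample left out (rows). The elevated probes stay between 0.79 and 2.63 and the reduced ones between -2.10 and -0.59 in every row.

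Of 6 tested relatives and partners of ezrin, 2 were called, where 11.8% of all genes were. Msn, which encodes moesin, was elevated, with log2 signals of 6.02 and 6.41 in cKO against 5.25 and 5.23 in Control lenses (log2 fold change 0.97 ± 0.17, SE, limma adjusted p = 0.0185). Both of its tested probes were called in this direction. Msn lies on the X chromosome, and it was not called without cKO B (adjusted p = 0.120) or Control B (0.0636), nor with the deposited table (0.0813) or with no detection filter (0.0937). Prx, which encodes periaxin, a scaffold protein of lens fiber membranes, was reduced, with 7.10 and 6.60 against 7.73 and 7.74 (log2 fold change -0.88 ± 0.19, SE, limma adjusted p = 0.0314). Its change was -0.08 with no normalization between arrays, and its call was kept only in the fit without cKO A among those that left out a sample, and was lost with the deposited table (0.103) and with no detection filter (0.179). Of the tested Prx probes, 5050093 was called (-1.04, limma adjusted p = 0.0177) and 730243 was not (-0.73, adjusted p = 0.0678). Moesin is also made by endothelial cells and macrophages. Of the 4 tested vessel markers Emcn was elevated (log2 fold change 1.15, limma adjusted p = 0.0173) and 3 were not called, Cdh5 (0.60, adjusted p = 0.0816), Pecam1 (-0.06) and Kdr, which had 4.83 and 4.77 in cKO against 5.26 and 5.55 in Control lenses (-0.61, adjusted p = 0.0511). Of the 3 tested macrophage markers Cd68 was above background on both cKO arrays and on neither Control array (at least 1.27-fold higher, limma adjusted p = 0.0381). It passed the filter through the cKO group alone, so that its call is no independent sign of a change. Csf1r (-0.11) and Aif1 (-0.07) were not called. The mean log2 signal of the vessel markers was 5.39 and 5.37 in cKO against 5.18 and 5.04 in Control lenses, and that of the macrophage markers 4.95 and 4.91 against 4.71 and 4.81. Their part in the Msn value was not tested.

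Of 11 tested actin filament genes that work with tropomyosin, 1 was called, which is near the 11.8% of all genes. Tmod4, a tropomodulin known from skeletal muscle, was elevated at a dim signal, with log2 signals of 5.38 and 5.67 in cKO against 4.84 and 4.78 in Control lenses (log2 fold change 0.72 ± 0.16, SE, limma adjusted p = 0.0335). It was called in 5 of 12 alternative settings and, with a sample left out, only without Control A. The call rests on probe 4250148, which was above background on both cKO arrays and on neither Control array and so passed the filter through the cKO group alone. The probe detected on all arrays, 2030397, gave 0.54 and was not called (adjusted p = 0.0851). Tmod1, the tropomodulin of the lens fiber membrane skeleton, changed by -0.39 ± 0.20 on the log2 scale (SE, adjusted p = 0.224). The non-muscle myosin genes Myh9 and Myh10 had log2 fold changes of -0.005 and 0.02. Of 5 tested calpain genes, whose products cleave spectrin, 0 were called by limma, where 11.8% of all genes were, and 2 had an unadjusted p under 0.05, where the share over all genes was 31.8%. Capns1, the small regulatory subunit, changed by 0.55 ± 0.14 on the log2 scale (SE, adjusted p = 0.0473), under the threshold for the fold. Capn3, the calpain of which the lens makes its own forms, had -0.06 ± 0.18 (SE, adjusted p = 0.840).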

How the data were processed

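For the 4 arrays the authors deposited signal intensity both unnormalized and scaled by the rank-invariant method, with a detection p-value per probe and array that ranks the signal against negative control beads. RNA was isolated by RNeasy kit, and both tables came from the scanner software. Of 45281 probes, 18 lines of the unnormalized table had shifted cells and were left out. The files name no genome build.

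Unnormalized intensity was corrected with neqc of limma (version 3.58.1, R 4.3.3; offset 16, negative controls inferred from the detection p-values), quantile normalized and log2 transformed. A probe was kept where its detection p was under 0.05 in at least 2 samples. Gene values are means over a gene's probes. Genotypes were compared with lmFit and eBayes (two-sided, Benjamini-Hochberg over all genes or all probes), and probes within a gene with diffSplice. The thresholds follow the methods of the study, which used edgeR, a model for counts, not applied to these intensities. "At least" folds set the brighter group against the higher of the probe's own signal and the lowest signal of a detected probe on each array. The fits were tested on simulated data. Tables were read with Python 3.11.15. The number of arrays limits the precision.

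The genes named are all members, Celf1, Xist, Ddx3y, the markers and the called genes of the 4 lists, and others, such as Sptb, Ank3, Epb41, Epb41l5, Dmtn, Tmod1, Myh9, Myh10, Capns1 and Capn3, were chosen after their values were seen. The members and lists were chosen with earlier results of these data known. Alternatives covered the table, background correction, normalization, detection filter, minimum signal, several probes, variance model, replicate letter and leaving out each sample.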

Additional observations from a re-analysis of the deposited data

How the results depend on the processing

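All alternatives were planned and were run, except the slide as a block, since no slide is named in the files. Under every alternative that could be run, the elevated Sptbn1 probe 5090446 kept its sign (log2 fold change 1.72 to 2.63 with all samples, 1.55 to 2.0 with a sample left out) and was not called with the deposited normalized table (adjusted p = 0.0667) or with no detection filter (0.0623). Probe 650630 kept its sign too (-1.5 to -0.59, and -1.79 to -1.10) and was not called with the deposited table (adjusted p = 0.0848), with no normalization (0.0544) or with no detection filter (0.112). Probe 6180538 was not called in these settings either (0.0977, 0.115 and 0.178), nor with normexp (0.073). Both Sptb probes lost their calls with the deposited table (2690288 0.113, 5560450 0.0843) and with no detection filter (0.185 and 0.11), and the difference between Sptb probes did not pass with the deposited table (0.149). Celf1 was not called with the deposited table (0.0755) or with no detection filter (0.0733). The difference between Sptbn1 probes passed in all 10 full-sample alternatives (adjusted p 1.74e-05 to 0.0313). Values under 1 in the deposited table were set to 1 before the log2 was taken.

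Counts of calls moved. Member genes called were 5, all elevated, with no normalization between arrays, 2, both reduced, with the same median over detected probes, and 1 (Sptbn1, 1.78) with the brightest probe of each gene. Member probes called were 2 with normexp, 0 with the deposited table (8 at an unadjusted p under 0.05), 14, all elevated, with no normalization, 8 with the same median and 0 with no detection filter (10 at an unadjusted p under 0.05). Member genes whose probes differed were 2 with the deposited table, 2 with no normalization and 3 with the same median. Genes called on the 4 lists were 1 with the deposited table, 18 with no normalization, 7 with the same median and 1 with no detection filter. All genes called were 870 with normexp, 7 with the deposited table, 6054 with no normalization, 2831 with the same median and 180 with no detection filter. The median of all genes was 0.57 with no normalization and -0.19 with the same median, and 97.7% and 25.5% of the calls were elevated, against 52.1% in the reported fit and 71.4% with the deposited table. With a sample left out, a fit that assumes that the lone sample varies like the other group, the counts were 0 for member genes, 1 to 4 for member probes (1 without Control B), 0 to 1 for genes whose probes differ (0 without Control B), 1 to 4 for the lists (1 without Control B and 1 without cKO B) and 250 to 1760 for all genes (439 without Control B, 652 without cKO A and 250 without cKO B).

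Some values changed sign, none of them called in the reported fit. With no normalization the log2 fold changes were 0.72 for Tpm1, 0.036 for Tpm2, 0.80 for Tpm3, 0.17 for Tpm4, 0.54 for Sptbn1, 0.28 for Add1, 0.32 for Add1 probe 3460592 and 0.26 for Sptb. With the same median they were 0.041 for Tpm3, -0.014 for Sptan1 and -0.35 for Add1 probe 580494. Sptan1 was -0.15 with the deposited table and Ank2 -0.088 with the brightest probe. With a sample left out the range was -0.30 to 0.19 for Tpm1, -0.18 to 0.078 for Tpm3, -0.039 to 0.21 for Sptan1, -0.014 to 0.14 for Ank2 and -0.054 to 0.36 for Add1 probe 580494. The cause was not tested.

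The replicate letters are not said to pair samples, and across genes the differences of A minus B did not go together between genotypes (r = -0.005). With the replicate block 0 member genes, 7 member probes, 6 genes of the lists and 1919 of all genes were called, and 2 member genes had probes that differ. Signal near background limits the dim probes of Tpm2, Tpm4, Add1 and Sptan1.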

Other observations

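The other 5 genes with called probes in opposite directions were Mrps10, Ciapin1, Faf1, Gtf3c4 and 2310016E02Rik, chosen after their values were seen. The highest and the lowest log2 fold change among called probes were 1.51 and -1.01 for Mrps10, which encodes a protein of the mitochondrial ribosome, and 0.97 and -0.97 for Ciapin1. They were 0.70 and -0.76 for Faf1, 0.74 and -0.77 for Gtf3c4, and 0.75 and -1.37 for 2310016E02Rik. In each of the 5 the probes differed in the test within the gene (limma diffSplice adjusted p from 3.21e-04 to 0.033).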
